A study of Mus musculus with 58 samples.

Results

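DNA methylation writers and erasers were followed as a set of 7 genes: the maintenance pair *Dnmt1* and *Uhrf1*, the de novo methyltransferases *Dnmt3a* and *Dnmt3b*, and the dioxygenases *Tet1*, *Tet2* and *Tet3*. The members were taken by symbol from a fixed list, and all 7 of 7 were found among the 55376 genes of the RNA count tables. The rule itself uses no measured value, but the list was chosen with earlier results of these data known. Libraries came from hematopoietic stem cells (HSCs), the rare bone marrow cells that sustain blood production, of male C57BL/6 mice. Old mice of 24 to 26 months from an aged rodent colony had been fed ad lib (OAL, n = 4), kept on lifelong 40% caloric restriction (OCR, n = 4), or refed for 4 weeks after lifelong restriction (OCRRF, n = 2). Young mice of 3 to 4 months from a commercial supplier had been fed ad lib (YAL, n = 4), restricted for 4 weeks with a milder first week at 20% (YCR, n = 4), or refed for 4 weeks afterwards (YCRRF, n = 4). In a further experiment, aged HSCs were transduced with lentiviral shRNA against *Kdr* (n = 4) or against *Kdr* and *Bmpr1a* together (2 libraries for each of 2 *Bmpr1a* shRNAs, n = 4 in all), or with the matching scrambles (n = 2 for each), transplanted into irradiated young recipients and sorted again as donor cells. These knockdown libraries therefore share transduction and transplantation, scrambles included. The labels do not say whether libraries of a group came from separate animals or pools, so p-values measure only the spread between these libraries.

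DNMT1 copies methylation of CpG sites onto the new strand after replication, and UHRF1 recognises the hemimethylated CpG and recruits DNMT1 to it. DNMT3A and DNMT3B set methylation at unmethylated CpG sites, and TET1, TET2 and TET3 oxidise 5-methylcytosine, the first step of its removal. In blood, DNMT3A and TET2 are known for mutations that accompany clonal expansion of HSCs with age. Methylation itself was not measured in the files used here, so all values below are RNA levels, chromatin signals or binding peaks at these genes.

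On the mm10 assembly (GRCm38), *Dnmt1* lies at chr9:20907209-20959888, *Uhrf1* at chr17:56303321-56323486, *Dnmt3a* at chr12:3806007-3914443, *Dnmt3b* at chr2:153649450-153687730, *Tet1* at chr10:62804570-62908996, *Tet2* at chr3:133463679-133545139 and *Tet3* at chr6:83362373-83459084. *Uhrf1*, *Dnmt3a* and *Dnmt3b* are on the plus strand and the others on the minus strand. A few promoters of 300 bases, 250 before to 50 after an annotated start, are printed from RefSeq on GRCm38.p6, in the direction of transcription. They were picked for their CpG counts or motif words, described below, and their part in the RNA changes was not tested. Capitals mark every CpG, the substrate of the enzymes that these genes encode.
*Dnmt1* upstream start, chr9:20959839-20960138, minus strand: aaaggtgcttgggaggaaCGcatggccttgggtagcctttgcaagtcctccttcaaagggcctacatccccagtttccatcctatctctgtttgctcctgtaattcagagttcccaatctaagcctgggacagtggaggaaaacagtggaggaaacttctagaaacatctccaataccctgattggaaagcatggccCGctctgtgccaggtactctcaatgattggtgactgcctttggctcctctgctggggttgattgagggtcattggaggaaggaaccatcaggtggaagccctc
*Dnmt1* most downstream start, chr9:20952574-20952873, minus strand: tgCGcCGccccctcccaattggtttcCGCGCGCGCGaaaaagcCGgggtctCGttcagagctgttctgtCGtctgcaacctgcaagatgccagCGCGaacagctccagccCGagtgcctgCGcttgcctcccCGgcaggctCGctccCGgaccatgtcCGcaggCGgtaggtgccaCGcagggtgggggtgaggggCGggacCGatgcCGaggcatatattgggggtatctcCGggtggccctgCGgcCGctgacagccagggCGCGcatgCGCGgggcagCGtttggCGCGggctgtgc
*Uhrf1* second start, chr17:56304063-56304362, plus strand: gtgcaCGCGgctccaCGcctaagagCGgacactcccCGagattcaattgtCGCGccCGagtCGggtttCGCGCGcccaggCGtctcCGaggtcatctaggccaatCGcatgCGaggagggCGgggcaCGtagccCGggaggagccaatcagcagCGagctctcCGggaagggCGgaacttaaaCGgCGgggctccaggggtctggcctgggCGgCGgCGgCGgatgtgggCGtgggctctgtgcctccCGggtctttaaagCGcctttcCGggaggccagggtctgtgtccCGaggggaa
*Tet2* start, chr3:133544341-133544640, minus strand: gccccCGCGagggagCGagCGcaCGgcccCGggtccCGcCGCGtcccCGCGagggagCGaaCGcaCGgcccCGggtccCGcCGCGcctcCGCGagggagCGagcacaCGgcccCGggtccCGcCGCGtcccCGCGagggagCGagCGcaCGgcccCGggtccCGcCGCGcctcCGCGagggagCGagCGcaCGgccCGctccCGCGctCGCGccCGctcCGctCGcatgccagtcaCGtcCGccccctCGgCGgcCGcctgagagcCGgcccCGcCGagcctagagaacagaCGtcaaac

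The 12 member promoters in the RefSeq table held 2 to 57 CpGs, against a median of 7 over 32851 promoters of the same length. The upstream *Dnmt1* promoter was the CpG-poor end of that range with 2 CpGs, and the *Tet2* promoter the CpG-rich end with 57. The most downstream *Dnmt1* promoter and the second *Uhrf1* promoter each held 33 CpGs. A search on both strands for 4 words of the E2F motif, TTTCCCGC, TTTCGCGC, TTTGCCGC and TTTGGCGC, found a match in 2.26% of all promoters. Among the 12 member promoters, only these 2 held one: the *Dnmt1* promoter matched TTTCGCGC on the opposite strand at bases 32 to 39 and TTTGGCGC at bases 284 to 291, and the *Uhrf1* promoter matched TTTCGCGC at bases 66 to 73, counted from the first base printed. Each of the 4 words holds a CpG, and the share over all promoters was not matched for CpG count, so it is no fair measure for CpG-rich promoters. A match describes letters in this window and is not evidence of binding.

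RNA levels are given as CPM, the share of a library's counted reads that fell on a gene expressed per megaread, scaled by the TMM method over the libraries of an experiment. The diet libraries held 11102898 to 36579392 counts on genes and the transplanted libraries 35657999 to 44780217, and every member had at least 470 counts in every library. The HSC markers *Hlf*, *Procr*, *Slamf1* and *Fgd5* had counts in every group. Group means of *Hlf* were 489 to 638 CPM in the diet groups and 265 to 339.6 CPM in the transplanted ones, and those of *Procr* 179 to 266 and 116 to 156 CPM. B and plasma cell markers summed to 44.7 to 402 CPM in the YCR libraries and 29.4 to 107 CPM in all others, and *Jchain* averaged 147 CPM in YCR and 0.319 CPM in YAL HSCs. T cell markers summed to at most 11.8 CPM in any library, whereas the 7 myeloid markers summed to 492 to 1818 CPM in the diet libraries and 791 to 3323 CPM in the transplanted ones. In bulk samples, fewer cells of a type and less RNA per cell cannot be told apart. Counts on olfactory and vomeronasal receptor genes, which HSCs are not known to use, were 553 to 1553 CPM in the 10 old libraries and 69.2 to 499 CPM in the 12 young ones. Among the old groups they were 553 to 788 CPM in OAL, 587 to 1313 CPM in OCR and 1213 and 1553 CPM in OCRRF libraries.

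Per kilobase of exon, *Dnmt1* was the most abundant member in every group, and in the diet groups ranged from 22.1 ± 1.16 CPM per kb (SD, n = 2) in OCRRF HSCs to 38.2 ± 6.22 (SD, n = 4) in OCR HSCs. *Dnmt3b* was second in OAL, YAL, OCRRF and YCRRF HSCs, and *Uhrf1* was second in OCR and YCR HSCs. In OAL HSCs *Dnmt3b* reached 12.8 ± 0.503 CPM per kb (SD, n = 4) and *Uhrf1* 9.84 ± 1.60 (SD, n = 4), whereas in OCR HSCs the values were 14.3 ± 0.885 for *Dnmt3b* and 24.3 ± 5.49 for *Uhrf1* (SD, n = 4). *Dnmt3a* followed in every group, at 6.25 ± 0.0979 CPM per kb (SD, n = 4) in OAL HSCs. The TET genes came last, between 2.68 and 4.78 CPM per kb on average in the diet groups. In OAL HSCs *Tet2* and *Tet1* averaged 3.73 and 3.72, which their spread does not separate, and *Tet3* 3.08. *Tet2* stood above *Tet3* in OAL and OCRRF HSCs and below it in the other 4 diet groups. Antisense or overlapping transcripts are annotated within 6 of the 7 genes, and whether counting used strand is not given in the sources used here. None of the overlapping genes exceeded 64 counts in an OCR library, but this does not show how reads in the overlaps were counted.

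**Figure D1:**
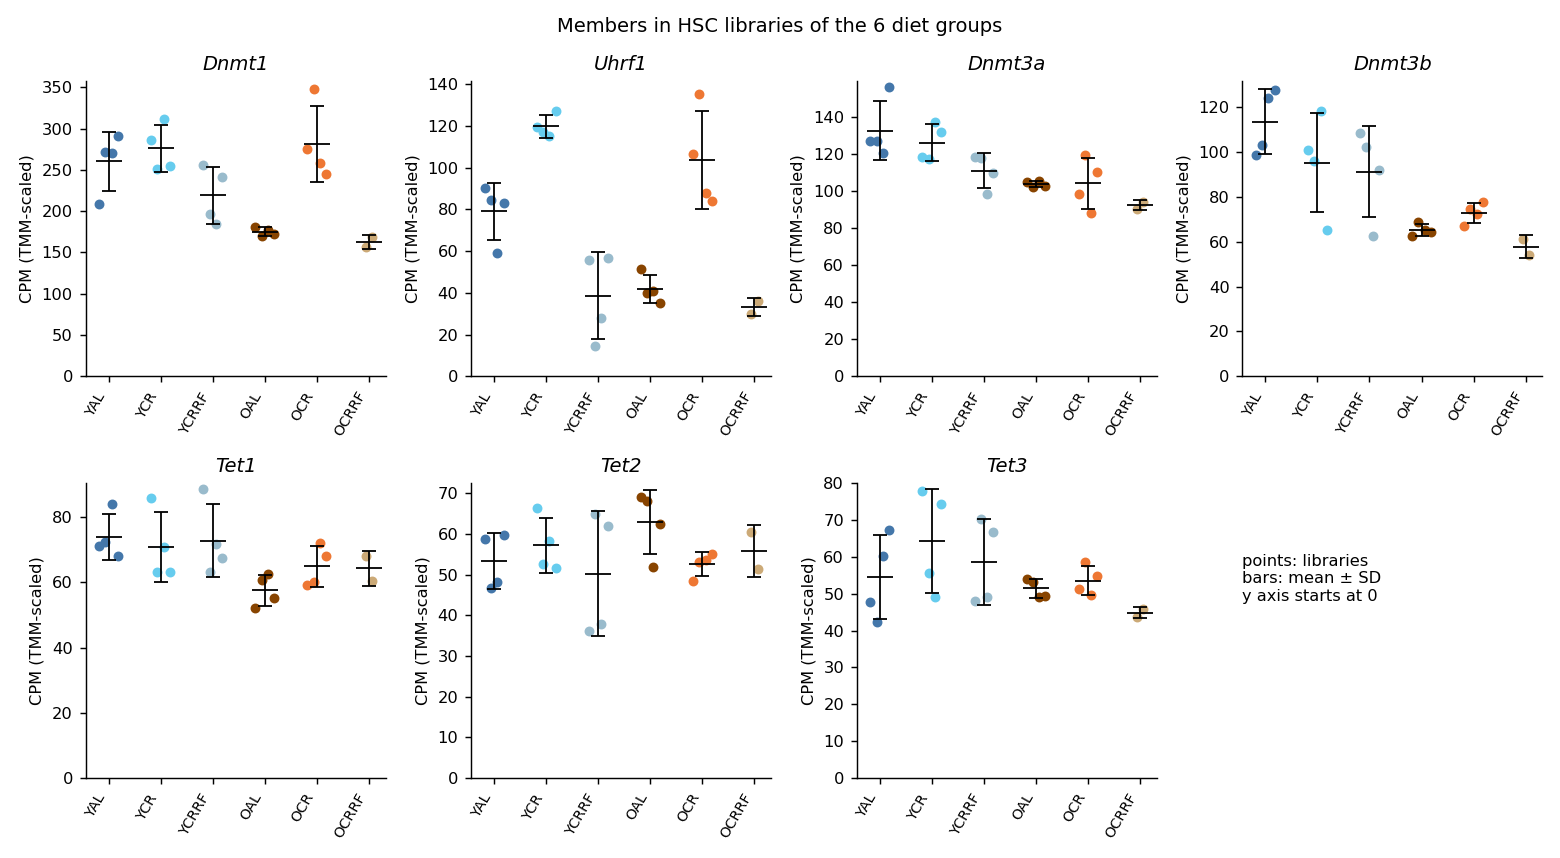
TMM-scaled CPM (y axis, from 0) of each member in every diet library, with the mean and SD of each of the 6 groups on the x axis. *Dnmt1* and *Uhrf1* are higher in all 4 OCR libraries than in all OAL and OCRRF libraries, *Tet1* and *Tet2* overlap between the old groups, and *Tet3* is lower in both OCRRF libraries than in all OAL and OCR libraries.

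The first comparison asked what lifelong restriction did to these genes in old HSCs. Both genes of the maintenance pair rose, and none of the other 5 members passed the test. *Dnmt1* was at 181, 169.9, 177 and 172 CPM in the OAL libraries and at 275, 348, 259 and 244 CPM in the OCR libraries. *Uhrf1* was at 51.5, 39.8, 41.1 and 35.3 CPM in OAL HSCs and at 107, 135, 88.0 and 84.3 CPM in OCR HSCs. For each gene every OCR library lay above every OAL library, and the second OCR library was the highest for both. The log2 fold change was 0.70 ± 0.09 (SE) for *Dnmt1* (edgeR adjusted p = 5.32e-06) and 1.32 ± 0.12 (SE) for *Uhrf1* (edgeR adjusted p = 1.82e-08), which are 1.63-fold and 2.50-fold increases. Beside this rise several HSC markers had lower means in OCR than in OAL HSCs, *Procr* 179 against 249.5 CPM, *Fgd5* 111 against 159 CPM, *Mllt3* 238 against 322 CPM and *Ly6a* 148 against 208 CPM, whereas *Kit* had 1661 against 1588 CPM and *Slamf1* 107 against 99.9 CPM. Their part in the result was not tested.

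A gene was called where its Benjamini-Hochberg adjusted p from edgeR was below 0.05 and its fold change above 1.2, and by this rule 2 of 7 members were called higher against 2.54% of the 27150 genes tested. *Dnmt3a* stood at 104 ± 1.63 CPM in OAL and 104 ± 13.7 CPM in OCR HSCs (SD, n = 4 each), with a log2 fold change of 0.02 ± 0.09 (SE). *Dnmt3b* was at 62.6, 68.6, 65.1 and 64.1 CPM in OAL and 66.9, 74.5, 72.3 and 77.6 CPM in OCR HSCs, groups that overlapped, with a log2 change of 0.18 ± 0.08 (SE, edgeR adjusted p = 0.279). *Tet1* had a log2 fold change of 0.19 ± 0.09 (SE), *Tet3* of 0.08 ± 0.09 (SE) and *Tet2* of -0.24 ± 0.09 (SE, edgeR adjusted p = 0.163). *Tet2* ranged from 51.9 to 69.2 CPM in OAL and from 48.4 to 55.2 CPM in OCR HSCs, and without the third OAL library, its lowest, *Tet2* passed the test with a log2 fold change of -0.33.

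The same contrast was read for genes that work with the members. Of the DNMT partners and cofactors, 3 of 11 tested rose and none fell, with a median log2 fold change of 0.11 against 0.02 over all genes tested. *Hells*, a chromatin remodeller needed for methylation of repeats, went from 22.4 ± 2.25 to 50.5 ± 12.9 CPM (SD, n = 4 each), and *Cdca7*, its partner, from 149.8 ± 7.51 to 217 ± 26.1 CPM (SD, n = 4 each). The last was *Pcna*, the replication clamp, with a log2 fold change of 0.54 ± 0.09 (SE). Among TET partners and base excision repair genes 1 of 18 rose and 2 fell, with a median of -0.05. The gene that rose was *Neil3*, a DNA glycosylase, from 6.75 ± 0.835 to 22.9 ± 2.84 CPM (SD, n = 4 each), and those that fell were *Gadd45g*, from 36.4 ± 3.37 to 21.1 ± 2.69 CPM (SD, n = 4 each), and *Neil2*, with a log2 fold change of -0.70 ± 0.17 (SE). None of the 9 methyl-CpG readers and none of the 11 genes of the methyl donor cycle was called, with medians of 0.00 and 0.01.

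*Dnmt1*, *Uhrf1*, *Hells*, *Cdca7* and *Pcna* are known as genes that dividing cells express in S phase, and *Pcna*, *Hells* and *Cdca7* are also in the S phase list used here, from which *Uhrf1* was left out. In OCR against OAL HSCs 36 of 42 genes of that list rose and none fell, with a median log2 fold change of 0.85. *E2f8* rose from 6.31 ± 0.738 to 19.6 ± 4.10 CPM and *Rad51ap1* from 7.17 ± 0.913 to 22.0 ± 4.14 CPM (SD, n = 4 each). *Mki67*, which marks dividing cells, was at 30.7 to 39.5 CPM in OAL and 98.2 to 143 CPM in OCR HSCs. For each library the log2 CPM of a maintenance gene was then set against the median log2 CPM of the list. *Dnmt1* stood 2.05 ± 0.08 above the list in OAL and 2.07 ± 0.05 above it in OCR HSCs (SD, n = 4 each), a difference of 0.01 on the log2 scale (two-sided exact permutation p = 0.686, adjusted p = 0.686 over 4 comparisons). *Uhrf1* stood 0.02 ± 0.16 below the list in OAL and 0.61 ± 0.11 above it in OCR HSCs (SD, n = 4 each), a difference of 0.63 with no overlap (two-sided exact permutation p = 0.0286, the smallest that 4 against 4 allows, adjusted p = 0.114). With 4 libraries a group, a single comparison at the smallest p cannot pass the correction over 4 comparisons, so the adjusted value says nothing on the size of the *Uhrf1* difference. The list itself spread widely: *E2f8* and *Rad51ap1* had log2 fold changes of 1.65 and 1.64, above the 1.32 of *Uhrf1*. They were picked as the called list genes of largest change. The list median is a level, with means of 5.40 in OAL and 6.06 in OCR HSCs, and its shift is not the median fold change of 0.85.

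**Figure D2:**
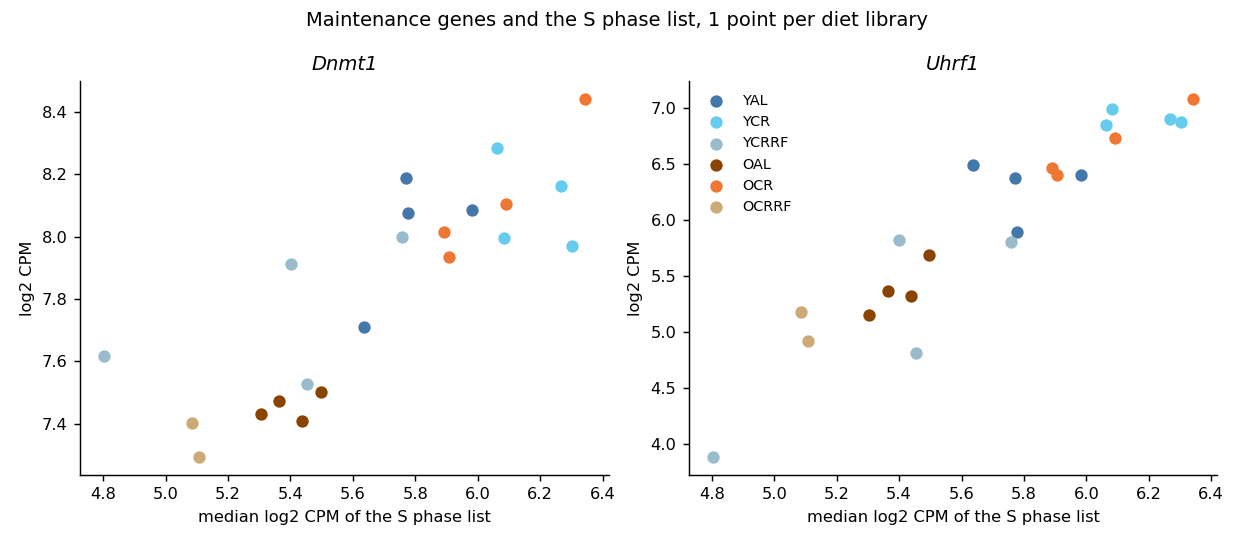
Log2 CPM of *Dnmt1* and *Uhrf1* (y axes) against the median log2 CPM of 42 S phase genes (x axis), 1 point for each of 22 diet libraries, coloured by group. OCR and YCR libraries lie at list medians of 5.89 to 6.34 and OAL and OCRRF libraries at 5.09 to 5.50.

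Refeeding after lifelong restriction was the next comparison, with 2 OCRRF libraries. The maintenance pair fell again. *Dnmt1* was at 157 and 169 CPM and *Uhrf1* at 30.1 and 36.2 CPM in OCRRF HSCs, below every OCR library. Against OCR the log2 fold change was -0.85 ± 0.13 (SE, edgeR adjusted p = 4.13e-05) for *Dnmt1* and -1.71 ± 0.16 (SE, edgeR adjusted p = 2.38e-09) for *Uhrf1*. These were the 2 members of 7 called lower, against 2.71% of the 32577 genes tested. *Dnmt3b* was at 61.3 and 54.0 CPM in OCRRF HSCs, under all 4 OCR libraries, with a log2 change of -0.39 ± 0.13 (SE, edgeR adjusted p = 0.0761). DESeq2 called *Dnmt3b* and *Tet3* as well (adjusted p = 0.00901 and 0.0360), where it called 2352 of the 32577 genes. *Dnmt3b* also passed in edgeR without the first or the third OCR library.

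In the same refeeding contrast, 39 of 42 S phase genes fell (median -1.05), 3 of 11 DNMT partners fell (*Hells*, *Cdca7* and *Pcna*, median -0.33), 3 of 18 TET partner and repair genes fell (*Neil3*, *Idh2*, *Parp1*, median -0.18), 1 of 9 readers fell (*Mbd3*, median -0.14) and none of 11 methyl donor genes was called (median -0.15), beside a median over all genes of 0.11. OCRRF shares its libraries with the comparison against OAL, and there none of the 7 members was called, against 4.14% of the 31816 genes tested. *Dnmt1* differed from OAL by -0.12 ± 0.07 and *Uhrf1* by -0.35 ± 0.13 on the log2 scale (SE, edgeR adjusted p = 0.267 for *Dnmt1* and 0.10 for *Uhrf1*). The receptor gene counts given above were higher in both OCRRF libraries than in every OAL library, and their part in the result was not tested. With factors drawn only from genes of at least 5 CPM, the median of all genes rose by 0.13 against OCR and by 0.14 against OAL, and *Dnmt1* then differed from OAL by 0.02. *Uhrf1* was called against OAL by DESeq2 (adjusted p = 0.0190), with DESeq2 size factors (edgeR adjusted p = 0.0483) and without a filter on low counts (edgeR adjusted p = 0.0140). DESeq2 also called *Tet3* there (log2 fold change -0.27, adjusted p = 0.0287). These settings called more genes in all than the 1316 of the edgeR test above. DESeq2 called 3906 of 31816, its size factors 3215 of 31816 and edgeR without a filter 2684 of 51950.

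**Figure D3:**
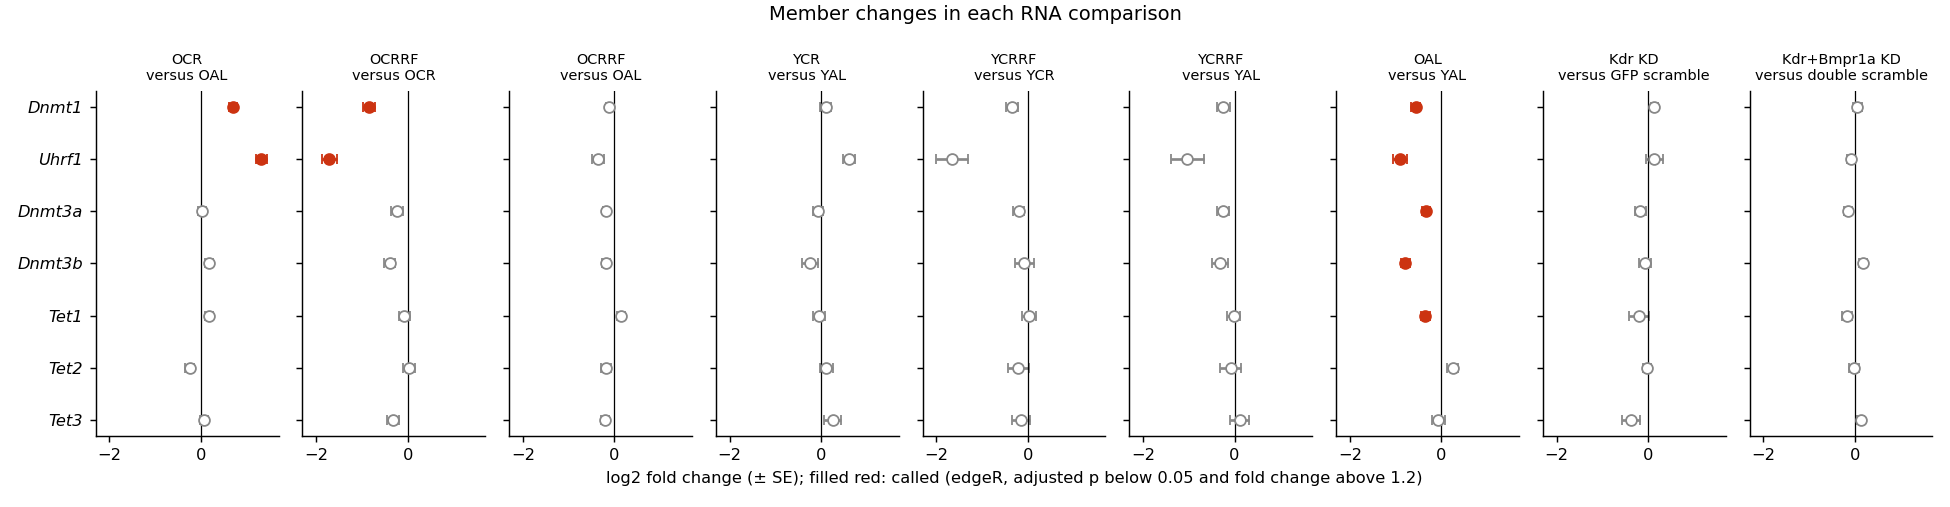
Log2 fold change with SE (x axes) of the 7 members (y axis) in the 9 RNA comparisons, filled where called by edgeR. Filled points appear in 3 comparisons, those of OCR with OAL, OCRRF with OCR and OAL with YAL.

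Short restriction in young mice gave no call. *Uhrf1* was at 90.1, 84.4, 59.2 and 83.0 CPM in YAL and at 119, 117, 115 and 127 CPM in YCR HSCs, so that every YCR library lay above every YAL library. Its log2 fold change of 0.61 ± 0.13 (SE) had an edgeR adjusted p of 0.107, and 0 of 7 members were called where 0.364% of 18680 genes were. DESeq2 and edgeR without a filter on low counts both called *Uhrf1* (adjusted p = 0.00136 and 0.00429), at similar log2 fold changes of 0.62 and 0.60. *Dnmt1* was at 209, 271, 270.0 and 292 CPM in YAL and 286, 251, 312 and 255 CPM in YCR HSCs, groups that overlapped, with a log2 fold change of 0.10 ± 0.11 (SE). *Dnmt3a*, *Dnmt3b*, *Tet1*, *Tet2* and *Tet3* had log2 fold changes between -0.24 and 0.25, and the S phase list had a median of 0.32 with none of 42 genes called.

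After refeeding of young mice *Uhrf1* was at 55.6, 14.7, 28.1 and 56.5 CPM in YCRRF HSCs, below all YCR and YAL libraries. YCRRF replicates 2 and 3 were the lowest, and the S phase list medians of the 4 libraries were 5.76, 4.804, 5.45 and 5.40 log2 CPM. YCRRF replicate 3 stood apart from the others of its group, with a chi-square per degree of freedom of 153 to 336 over genes where the other pairs of young libraries within a group had at most 56.5. Myeloid markers reached higher sums in this group, though the ranges overlapped: the 7 summed to 793 to 1818 CPM in YCRRF, 492 to 793 CPM in YCR and 554 to 1007 CPM in YAL libraries. The mean of *S100a8*, 1 of the 7, was 257, 21.6 and 58.1 CPM in the same order. Their part in the result was not tested. Without YCRRF replicate 3, the log2 fold change of *Uhrf1* against YCR was -1.52. Against YCR the log2 fold change was -1.65 ± 0.35 (SE, edgeR adjusted p = 0.214) and none of the 7 members was called, where 0.0102% of 19535 genes were. DESeq2, edgeR without a filter and 1 fit of all 6 diet groups called *Uhrf1* there (adjusted p = 0.000532, 4.83e-14 and 0.00202). The log2 fold change without a filter was also -1.65. The small p there thus came with the genes entered into the fit and not with a larger change or a smaller spread between libraries. Against YAL it was -1.03 ± 0.36 (SE, edgeR adjusted p = 0.995), with 0% of 19334 genes called by edgeR, 714 genes at an unadjusted p below 0.05 and 15 genes called by DESeq2. Without a filter on low counts *Uhrf1* passed in edgeR (adjusted p = 0.00624) at a log2 fold change of -1.04, so this call also came with the genes in the fit. *Dnmt1* was at 256, 196, 184 and 241 CPM in YCRRF HSCs, which overlapped both other young groups.

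Relative to the S phase list, *Dnmt1* stood 2.22 ± 0.16 above it in YAL and 1.93 ± 0.23 above it in YCR HSCs (SD, n = 4 each, two-sided exact permutation p = 0.0857, adjusted p = 0.171). *Uhrf1* stood 0.50 ± 0.31 above it in YAL and 0.73 ± 0.15 above it in YCR HSCs (SD, n = 4 each, two-sided exact permutation p = 0.257, adjusted p = 0.343). Whether the response to restriction differed between ages was tested in 1 model of the 4 groups, with 0 of 7 members called against 0.0318% of 28328 genes. The old response of *Dnmt1* exceeded the young one by 0.60 ± 0.16 on the log2 scale (SE, edgeR adjusted p = 0.254) and that of *Uhrf1* by 0.71 ± 0.22 (SE, edgeR adjusted p = 0.350). DESeq2 called the difference for *Dnmt1* (adjusted p = 0.0219), so the tools part on it. Duration of restriction and age differ together between these arms and cannot be told apart.

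Between ad lib ages, 5 of 7 members were lower in old HSCs, against 7.93% of the 23525 genes tested. *Dnmt3b* was at 98.7, 103, 124 and 127 CPM in YAL HSCs, above all 4 OAL libraries, with a log2 change of -0.79 ± 0.10 (SE, edgeR adjusted p = 0.000853). *Uhrf1* fell by 0.90 ± 0.15 and *Dnmt1* by 0.56 ± 0.09 on the log2 scale (SE, edgeR adjusted p = 0.00441 and 0.00450). *Dnmt3a* was at 121 to 156 CPM in YAL and 102 to 105 CPM in OAL HSCs, and *Tet1* at 68.2 to 84.1 and 52.1 to 62.4 CPM, with log2 fold changes of -0.34 ± 0.09 and -0.35 ± 0.10 (SE, edgeR adjusted p = 0.0262 and 0.0379). The calls of *Dnmt3a* and *Tet1* were lost without any 1 of the 4 OAL libraries and in 4 of the 8 other settings, which left 3 members called, and that of *Tet1* also in 1 fit of all groups, which left 4. *Tet2* was at 46.7 to 59.9 CPM in YAL and 51.9 to 69.2 CPM in OAL HSCs, with a log2 change of 0.25 ± 0.12 (SE, edgeR adjusted p = 0.199), and *Tet3* had -0.07 ± 0.14 (SE), which turned to 0.04 with factors from genes of at least 5 CPM.

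With those factors the median of all genes moved up by 0.11, and the share of higher genes among those called went from 46.5% of 3486 to 70.5% of 2656. Old and young mice came from different colonies, so age and source cannot be told apart, and the receptor gene counts given above were higher in every old library than in every young one. Their part in the result was not tested. In the gene lists, 27 of 42 S phase genes were lower in OAL HSCs and none higher (median -0.62), while *Mki67* had a log2 change of 0.15 ± 0.36 (SE, edgeR adjusted p = 0.821). Of the DNMT partners 7 of 11 were lower (*Hells*, *Cdca7*, *Cdca7l*, *Pcna*, *Trim28*, *Setdb1*, *Naa10*) and 2 higher (*Dnmt3l*, *Zfp57*), with a median of -0.36. Of the TET partner and repair genes 5 of 18 were lower and 1 higher (*Gadd45g*, log2 fold change 1.25 ± 0.12 SE), of the readers 2 of 9 were lower and 1 higher, and of the methyl donor genes 1 of 11 was lower (*Mat2a*, which makes S-adenosylmethionine, -0.27 ± 0.06 SE). The median over all genes tested was 0.05.

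The likeness of each member to other genes was described over the 22 diet libraries by the Pearson correlation of log2 CPM, among the 12327 genes that averaged 5 CPM or more. The libraries fall into diet groups and share their depth and receptor counts, so these values carry no p. The genes most like *Dnmt1* were *Mcm6* (r = 0.94), *Mcm3* (0.92) and *Mcm2* (0.89), all subunits of the replicative helicase. *Uhrf1* was most like *Tipin* (0.94), *Dtl* (0.94) and *Pkmyt1* (0.93). *Dnmt3b* was most like *Slc43a1* (0.91), *Parp3* (0.90) and *Nelfb* (0.90), and *Dnmt3a* like *Nploc4*, *Traf3ip3* and *Tcof1* (0.85 for each). The closest genes to the TET members had lower values: *Coro2b*, *Cinp* and *Ulk3* at 0.76 to 0.74 for *Tet1*, *Tbc1d7*, *Itpripl2* and *Zfp229* at 0.77 to 0.72 for *Tet2*, and *Paqr5*, *Phrf1* and *Ankrd12* at 0.81 to 0.77 for *Tet3*. Between members the highest values were 0.79 for *Dnmt1* with *Uhrf1* and 0.76 for *Dnmt3a* with *Dnmt3b*, and the lowest was -0.43 for *Tet1* with *Tet2*.

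The knockdown libraries asked whether loss of *Kdr*, the gene of the VEGF receptor Flk1, alone or with *Bmpr1a*, a BMP receptor, changed gene expression in transplanted aged HSCs. *Kdr* itself was at 1.93, 2.21, 3.28 and 2.03 CPM in the 4 *Kdr* knockdown libraries and at 6.04 and 6.07 CPM in the GFP scrambles, with no overlap, and at 0.555 to 1.60 CPM in the double knockdown against 3.97 and 4.62 CPM in the double scrambles. *Bmpr1a* was at 4.44, 0.656, 2.22 and 0.595 CPM in the double knockdown and at 5.21 and 4.43 CPM in its scrambles, so the first library of *Bmpr1a* shRNA1 lay within the range of the scrambles. Neither target passed the adjusted threshold (log2 fold change of *Kdr* -1.35 ± 0.25 and -1.86 ± 0.37, SE, edgeR adjusted p = 0.247 and 0.272, and of *Bmpr1a* -1.29 ± 0.72, edgeR adjusted p = 0.602).

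No member was called in either knockdown. *Dnmt1* was at 449, 430.2, 444 and 438 CPM in *Kdr* knockdown HSCs and at 435 and 367 CPM in GFP scramble HSCs, and *Uhrf1* at 178, 105, 132 and 115 CPM against 123 and 118 CPM. The log2 fold changes were 0.14 ± 0.08 for *Dnmt1* and 0.14 ± 0.18 for *Uhrf1* (SE, edgeR adjusted p = 0.637 and 0.853), and 0 of 7 members were called against 0.0149% of 20098 genes. The member farthest from 0 was *Tet3*, at 30.8, 20.8, 36.0 and 35.7 CPM against 38.3 and 41.5 CPM, a log2 difference of -0.37 ± 0.20 (SE, edgeR adjusted p = 0.620). In the double knockdown *Dnmt1* was at 433, 512, 420.4 and 523 CPM against 475 and 434 CPM, and *Uhrf1* at 147, 156, 149 and 163 CPM against 176 and 152 CPM, overlapping in both. Their log2 fold changes were 0.06 ± 0.10 and -0.09 ± 0.07 (SE, edgeR adjusted p = 0.908 and 0.745), and 0 of 7 members were called against 0.00498% of 20072 genes.

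*Tet3* was at 41.1 to 43.8 CPM in the double knockdown and 38.2 and 39.2 CPM in its scrambles, with no overlap and a log2 change of 0.13 ± 0.08 (SE, edgeR adjusted p = 0.627). The other log2 fold changes of the double knockdown lay between -0.17 for *Tet1* and 0.18 for *Dnmt3b*. Beside those counts, 1789 genes in the *Kdr* knockdown and 1977 in the double knockdown had an unadjusted p below 0.05, and DESeq2 called 303 and 332 genes, none of them a member. For the difference between the double and the single response, 0% of 21250 genes were called by edgeR, 760 had an unadjusted p below 0.05 and DESeq2 called 3, and *Tet3* was farthest from 0 at 0.50 ± 0.24 (SE, edgeR adjusted p = 1.000). None of the 5 gene lists held a called gene in either knockdown, and the S phase medians were 0.18 and 0.07.

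The level of the members in transplanted cells was read beside the diet groups without a test, because the sequencer, the sort and the history of the cells differed between the experiments. *Dnmt1* averaged 54.3 to 64.0 CPM per kb in the 4 transplanted groups and *Uhrf1* 28.3 to 38.5, both above the 38.2 and 28.1 that were the highest diet means. *Dnmt3a* averaged 4.74 to 5.44 CPM per kb, under all 6 diet means. The S phase list medians were 6.58 to 7.13 log2 CPM per library, above all diet libraries. *Cd34* and *Flt3*, whose proteins were sorted against in the diet experiment only, summed to 394 to 915 CPM in the transplanted libraries. In the diet libraries they summed to 118 to 254 CPM. Their part in the result was not tested.

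**Figure D4:**
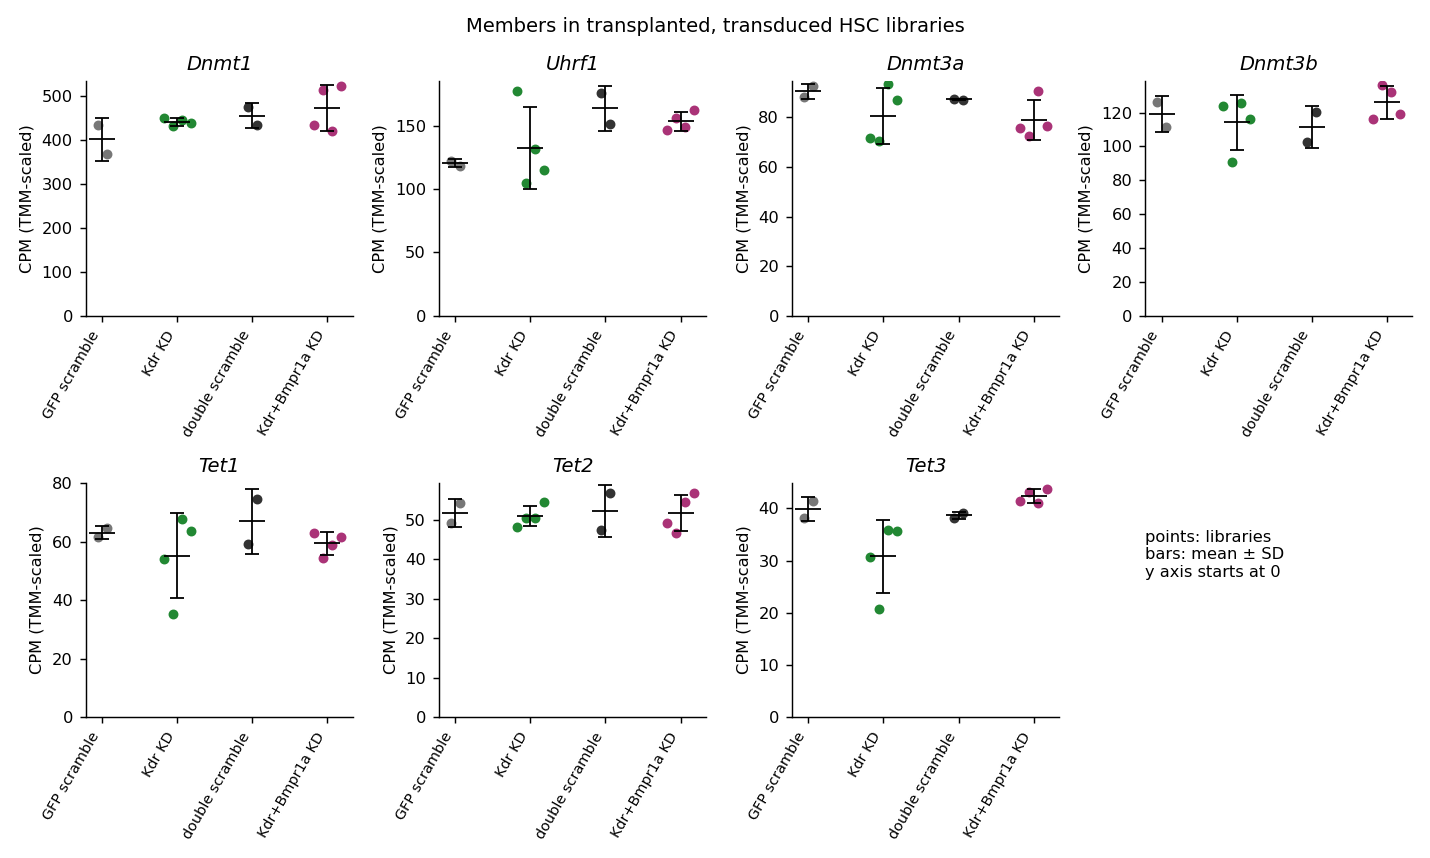
TMM-scaled CPM (y axis, from 0) of each member in every transplanted library, with mean and SD of the knockdown and scramble groups on the x axis. *Tet3* lies below both GFP scrambles in all 4 *Kdr* knockdown libraries and above both double scrambles in all 4 double knockdown libraries, and the other 6 members overlap in both.

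ATAC-seq, which counts transposase cuts in open chromatin, was available here for 4 OCR and 2 OCRRF libraries with 15721335 to 19558148 counts in 131918 consensus peaks. None of the 17 tested peaks within 1 kb of a member start and none of the 67 tested in member gene bodies was called, where 0.221% of 123372 peaks met 3 conditions together, namely adjusted p below 0.05, a change of more than 1.5-fold, and mean log2 CPM over 1.5. The smallest adjusted p at a start belonged to *Uhrf1*. Its peak over the first start, chr17:56303135-56303698, was at 12.0, 13.2, 10.2 and 10.3 CPM in OCR and at 7.15 and 8.20 CPM in OCRRF HSCs, with no overlap and a log2 change of -0.58 ± 0.16 (SE, edgeR adjusted p = 0.0790). The stronger peak over the second start, chr17:56303841-56304688, which covers the promoter printed above, was at 29.8, 32.1, 31.0 and 31.5 CPM in OCR and 30.7 and 28.2 CPM in OCRRF HSCs, with a log2 change of -0.08 ± 0.09 (SE, edgeR adjusted p = 0.802).

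The peak at the downstream *Dnmt1* starts, chr9:20952151-20953315, had a log2 change of -0.08 ± 0.08 (SE, edgeR adjusted p = 0.769), and no consensus peak overlapped the upstream start. In gene bodies the smallest adjusted p was 0.0621, for an intronic *Tet1* peak at chr10:62847032-62847846 with a log2 fold change of 0.62 ± 0.16 (SE). The median log2 fold change was -0.01 at starts, 0.04 in gene bodies and -0.01 over all peaks.

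Histone marks at starts were available for 2 OCR libraries of each mark. H3K4me3 marks active starts and H3K27me3 starts held by Polycomb, and the deposited signal is a mean per base over 750 bases for the first and 2000 bases for the second, downstream of each start. Among the *Dnmt1* starts, the upstream start, whose CpG-poor promoter is printed above, had an H3K4me3 signal of 0.0441 and 0.140 in the 2 replicates, at percentiles 2.62 and 7.63 of 31552 windows, and the most downstream start 38.8 and 35.7, at percentiles 90.6 and 88.1. *Dnmt3b* was the highest member window in replicate 1 at 45.9 and reached 38.5 in replicate 2. *Uhrf1* had 32.6 and 29.7 at the first start and 18.9 and 16.9 at the second, *Tet1* 37.5 and 33.9, *Tet2* 34.3 and 32.2, and *Tet3* 31.2 and 31.1 at its upstream start. *Dnmt3a* had 14.2 and 13.5 at its first start and 6.77 and 7.03 at its internal start. H3K27me3 stayed at or below 0.236 in all 12 windows other than the upstream *Dnmt1* start, which had 0.356 and 0.307, beside medians of 0.312 and 0.316 over all windows.

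**Figure D5:**
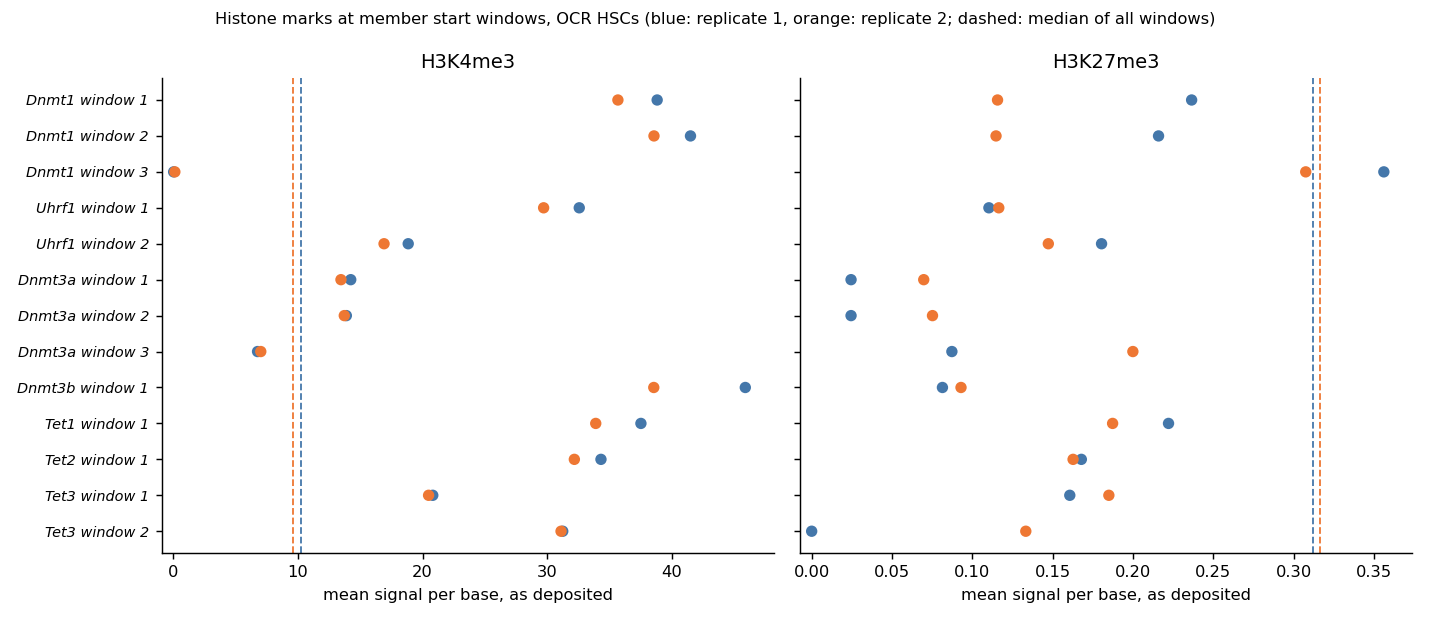
Deposited mean signal per base (x axes) of H3K4me3 and H3K27me3 in 13 windows at member starts (y axis, ordered by coordinate within a gene), with replicates in 2 colours and the median of all windows dashed. The third *Dnmt1* window, at the upstream start, has almost no H3K4me3, and the other *Dnmt1* windows lie between 35.7 and 41.5.

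PU.1, the transcription factor that drives myeloid genes, was mapped by ChIP-seq in 2 libraries each of OAL, OCR and OCRRF HSCs, with peaks called in each library separately. The OAL libraries are titled OWT and labelled control, and the file names give a different antibody supplier for the first and the second library of each group, so levels were not averaged. Peaks inside or within 5 kb of *Tet1* and *Tet3* were found in 6 of 6 libraries and of *Tet2* in 5 of 6, the exception being the first OAL library. *Dnmt3a* had a peak in the first OAL and the first OCR library only, and *Dnmt1*, *Uhrf1* and *Dnmt3b* had none in any library. By library, 3 or 4 of 7 members had a peak where 7.59% to 16.7% of 21951 protein-coding genes did, and the libraries held 2262 to 5464 peaks. The TET genes and *Dnmt3a* span 81.5 to 108 kb and *Dnmt1*, *Dnmt3b* and *Uhrf1* 20.2 to 52.7 kb, so the former leave more room for a peak.

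The *Tet1* peak centred 1759 to 1814 bases downstream of the nearest annotated start, in an intron, with a fold enrichment of 11.8 and 10.0 in OAL, 14.8 and 14.0 in OCR and 9.98 and 8.18 in OCRRF HSCs. The *Tet3* peak present in every library centred 841 to 919 bases downstream of a start, with a fold enrichment of 13.0 and 9.60 in OAL, 15.4 and 11.2 in OCR and 8.21 and 8.13 in OCRRF HSCs. Among libraries of the same number, OCR had the highest and OCRRF the lowest enrichment in both genes. Across numbers, where the antibody supplier differs, OAL and OCR libraries overlapped for *Tet3*. Enrichment also moved with the peaks a library held, which were most in OCR (5464 and 3852) and fewest in OCRRF (2817 and 2262), and no test was made. The centre of the *Tet2* peak lay upstream of a start, by less than 1 kb, with a fold enrichment of 6.49 to 8.07 where it was called. A further intronic *Tet3* peak was called in both OAL libraries and the second OCR library, with a fold enrichment of 6.10 to 7.15.

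The PU.1 word GAGGAAGT, searched on both strands in 200 bases around the summit, was in 35.1% and 36.1% of windows of the 2 OCR libraries. It was in the window of the *Tet3* peak near the start, which touches an exon of untranslated sequence, and not in those of *Tet1*, *Tet2* or *Dnmt3a*. The 30 bases around it are shown because they lie under the member peak of highest enrichment, on the plus strand of GRCm38.p6, with the word in capitals.
*Tet3*, chr6:83455495-83455524: agacacagaaaGAGGAAGTgcatcactggg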

How the data were processed

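The members and gene lists were chosen with earlier results of these data known. The authors trimmed RNA-seq reads, aligned them with STAR to mm10 (GENCODE M22) and deposited featureCounts counts per gene, unnormalized. For ATAC-seq the authors deposited read counts in consensus peaks. Histone files hold the authors' deposited signal per start window (summed coverage and mean per base), and PU.1 files the deposited MACS2 score, fold enrichment (ratio) and -log10 p-value and q-value per peak, for each library. The deposited histone and PU.1 values come without depth. The paper's reporting summary lists read numbers for these ChIP-seq libraries, which were not used here. The count of columns of no mapped sample was 0. The ATAC-seq and histone libraries of OAL HSCs were not analysed here.

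Counts were tested with edgeR 4.0.16 in R 4.3.3 (filterByExpr, TMM, glmQLFit, glmQLFTest), each comparison on its own groups, and SE is the absolute log2 fold change over the square root of F. A peak was called at a fold change above 1.5. Log2 CPM used a prior count of 2. Exon lengths and starts came from GENCODE M21 on the same assembly. Deeper libraries have less counting error. Within groups, library pairs differed beyond counting noise. Scripts were tested on simulated data. Levels relative to the S phase list were compared by exact permutation, and figures drawn with matplotlib 3.10.9.

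Named genes were the 7 members, the 3 genes most like each, the 2 called list genes with the largest change in OCR versus OAL, the knockdown targets and *Mki67*. Other list genes were named after their values were seen. Alternatives were DESeq2 1.42.0, its size factors, TMM factors from genes of at least 5 CPM, no filter, a minimum of 10 counts per library, a replicate block, a single fit over all groups, the adjusted p alone, each Bmpr1a shRNA alone, each library left out, a 5 kb window for ATAC-seq, and for PU.1 a 10 kb window or a -log10 q of at least 5. A gene of the HSC marker list and the sum of that list are not reported here.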

Additional observations from a re-analysis of the deposited data

How the results depend on the processing

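The calls of Dnmt1 and Uhrf1 in OCR versus OAL and OCRRF versus OCR, and of Dnmt1, Uhrf1 and Dnmt3b in OAL versus YAL, held under every alternative run and with each library left out. The number of members called changed as follows, and the cause was not tested. In OCRRF versus OCR DESeq2 called 4 (2 in edgeR). In OCRRF versus OAL, where edgeR called 0, DESeq2 called 2 (Uhrf1 and Tet3), DESeq2 size factors 1, no filter 1 and the replicate block 2 (Uhrf1 and Tet2). In YCR versus YAL, DESeq2 and no filter each called 1. In YCRRF versus YCR, DESeq2, no filter and 1 fit of all groups each called 1, and in YCRRF versus YAL no filter called 1. In OAL versus YAL, DESeq2 size factors, TMM from genes of at least 5 CPM, at least 10 counts in every library and the replicate block each called 3 and 1 fit of all groups 4 (5 in edgeR), and leaving out 1 library gave 3 to 5, with 3 on leaving out any of the 4 OAL libraries. The old minus young difference had 1 member called by DESeq2. With the replicate block, 1 ATAC peak at a start and 2 in gene bodies were called (0 and 0 without it), and leaving out 1 library gave 0 to 1, the 1 without OCR replicate 3.

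Signs of uncalled values near 0 turned. In OCRRF versus OCR, Tet2 was -0.034 with DESeq2 and -0.035 with its size factors, and Tet1 0.059 with TMM from genes of at least 5 CPM and 0.027 with the replicate block. With the former TMM, Dnmt1 was 0.024 in OCRRF versus OAL and Tet3 0.040 in OAL versus YAL, where a minimum of 10 counts gave 0.033. In the double knockdown Tet2 was 0.094 with shRNA2 alone. Leaving out 1 library gave these ranges of log2 fold change. In OCR versus OAL, Dnmt3a -0.056 to 0.093. In OCRRF versus OCR, Tet1 -0.20 to 0.065, Tet2 -0.13 to 0.20. In YCR versus YAL, Dnmt3a -0.10 to 0.031, Tet1 -0.15 to 0.018. In YCRRF versus YCR, Dnmt3b -0.21 to 0.068, Tet1 -0.076 to 0.12. In YCRRF versus YAL, Tet1 -0.12 to 0.046, Tet2 -0.23 to 0.049, Tet3 -5.48e-05 to 0.23. In OAL versus YAL, Tet3 -0.19 to 0.039. In Kdr knockdown versus GFP scramble, Uhrf1 -0.041 to 0.23, Dnmt3b -0.15 to 0.036, Tet2 -0.088 to 0.051. In Kdr and Bmpr1a knockdown versus double scramble, Dnmt1 -0.000371 to 0.12, Uhrf1 -0.19 to 0.017, Tet1 -0.33 to 0.018, Tet2 -0.14 to 0.13. In double minus single knockdown response, Dnmt1 -0.21 to 0.039, Dnmt3a -0.053 to 0.098, Tet1 -0.14 to 0.21, Tet2 -0.11 to 0.15. Where 1 OCRRF or scramble library remained, it was assumed to vary like the other group.

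The deviations of same-numbered libraries correlated at -0.264 to 0.216, with 2 to 4 pairs in a comparison. So few pairs do not show whether same-numbered libraries share a batch. With the block the calls over all genes were 1430 in OCR versus OAL, 3437 in OCRRF versus OCR, 2080 in OCRRF versus OAL, 7 in YCR versus YAL, 0 in YCRRF versus YCR and in YCRRF versus YAL, 1651 in OAL versus YAL, 26 in the Kdr knockdown, 0 in the double knockdown and 762 among ATAC peaks. DESeq2 called 1927, 2352, 3906, 454, 280, 15 and 4754 genes in the 7 diet comparisons in that order. With TMM from genes of at least 5 CPM, the share of called genes that were higher went from 45.6% to 56.2% in OCR versus OAL, from 20.4% to 37.3% in OCRRF versus OCR, from 40.1% to 93.3% in OCRRF versus OAL (26.4% with DESeq2 size factors) and from 33.3% to 46.2% in the old minus young difference.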
